A study of Caenorhabditis elegans with 2 samples.

Results

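The p97 ATPase genes and their partners in endoplasmic reticulum (ER)-associated degradation were taken as 7 named genes of Caenorhabditis elegans, of 19973 protein-coding genes on the nuclear chromosomes. They are cdc-48.1 and cdc-48.2, which encode the paralogous p97 ATPases, ufd-1, npl-4.1 and npl-4.2, which encode the p97 cofactors UFD-1 and NPL-4, and sel-1 and sel-11, which encode the worm counterparts of yeast Hrd3 and Hrd1. The genes were chosen by name with earlier results of these data known, so counts over them are descriptions. A binding region was counted for a gene where its summit lay from 1000 bp upstream of an annotated start to the end of the gene. The binding regions are those of NFYB-1, the worm counterpart of NF-YB in the CCAAT-binding complex NF-Y, measured by chromatin immunoprecipitation and sequencing (ChIP-seq). The study held 2 biological replicates of 1 group: whole young adults of strain RW12190, collected at 65 h after synchronisation by bleaching and starvation at the first larval stage. All animals carried nfyb-1 with a TY1, EGFP and 3xFLAG tag inserted at its own locus (st12190[nfyb-1::TY1::EGFP::3xFLAG] II), and an antibody against GFP was used for the precipitation. There was no second condition, the tagged protein is the form that was precipitated, and whole animals mix all tissues, so regions cannot be assigned to a cell type. The control experiment that the labels name was not used here.

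In ER-associated degradation, misfolded proteins of the ER are recognised, moved back across the membrane, marked with ubiquitin and destroyed by the proteasome. SEL-11 is the ubiquitin ligase in the ER membrane and SEL-1 is its partner, while the p97 ATPase, with UFD-1 and NPL-4 as its ubiquitin-binding cofactors, uses ATP to pull the marked proteins out. NF-Y is a trimer of which NF-YB and NF-YC form a histone-like pair and NF-YA reads the CCAAT sequence; in mammals it also takes part in the ER stress response element together with ATF6.

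One member carried a region that passed the threshold of the authors' conservative list, and it lay upstream of cdc-48.1. The sequence around that summit is shown because it is the region the results turn on. It is followed by the upstream bases of the paralog cdc-48.2, which hold the single CCAAT found in the upstream windows of the 7 genes, and by those of sel-1, which hold the same short motifs as cdc-48.1 without a thresholded region. The last is the upstream window of npl-4.1, which is the same as that of npl-4.2 at all 250 bases. All are in ce11 (WBcel235) and written 5′ to 3′ in the direction of the gene. Capitals in the cdc-48.1 and sel-1 sequences mark CGCGC and, on the opposite strand, TGACGT. In the cdc-48.2 sequence they mark CCAAT on the opposite strand. The npl-4.1 sequence holds no match to any of these motifs.
cdc-48.1, 100 bases either side of the summit, II:10563473-10563673, minus strand: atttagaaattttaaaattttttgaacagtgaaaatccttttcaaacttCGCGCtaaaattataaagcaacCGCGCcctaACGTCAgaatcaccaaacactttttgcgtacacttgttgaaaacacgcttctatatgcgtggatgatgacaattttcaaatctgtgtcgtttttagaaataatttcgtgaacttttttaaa
cdc-48.2, 250 bases before the start, II:8138246-8138495, plus strand: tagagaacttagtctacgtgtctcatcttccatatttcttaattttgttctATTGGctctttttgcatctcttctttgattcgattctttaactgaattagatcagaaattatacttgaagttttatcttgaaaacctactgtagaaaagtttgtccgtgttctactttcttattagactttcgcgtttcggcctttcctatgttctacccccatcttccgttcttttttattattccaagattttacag
sel-1, 250 bases before the start, V:12560482-12560731, plus strand: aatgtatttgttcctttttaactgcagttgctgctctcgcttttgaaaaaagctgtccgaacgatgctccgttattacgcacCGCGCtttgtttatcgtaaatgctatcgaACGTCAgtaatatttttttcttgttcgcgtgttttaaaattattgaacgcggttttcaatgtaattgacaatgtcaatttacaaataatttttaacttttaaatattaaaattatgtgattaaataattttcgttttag
npl-4.1, 250 bases before the start, II:5631101-5631350, plus strand: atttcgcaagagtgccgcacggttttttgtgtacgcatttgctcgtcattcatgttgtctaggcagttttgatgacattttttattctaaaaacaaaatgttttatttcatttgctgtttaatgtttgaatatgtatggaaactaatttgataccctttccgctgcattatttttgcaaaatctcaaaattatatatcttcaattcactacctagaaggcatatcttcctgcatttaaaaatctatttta

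The authors deposited 8 lists of regions. The conservative list holds 3890 regions that passed an irreproducible discovery rate (IDR) of about 0.01, a measure of how poorly a region's rank repeats between sets of calls, with lower values meaning better repeated. Its signal, the peak caller's value per region on a scale that is not stated, ran from 2.43 to 18739.3 with a median of 125.8. Ranked lists hold the weaker regions too, 85921 for the series, 56113 for replicate 1 and 78104 for replicate 2. The thresholded lists of the replicates hold 1734 and 2433 regions. At the 1342 regions that both thresholded lists share, replicate 2 exceeded replicate 1 by a median of 0.28 on the log2 scale, with quartiles at 0.07 and 0.49. Signals of a series list and of a replicate list are on different scales and are compared only within a list.

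A conservative region was counted at 1 of the 7 genes, a share of 14.3%, against 13.7% of all protein-coding genes. The share for the 7 genes was therefore near the background. The same single gene, cdc-48.1, was counted with the other thresholded list of the series (14.0% of all genes), with the list of replicate 1 (6.73%) and with that of replicate 2 (8.94%). With the ranked list of the series, 7 of 7 genes had at least 1 region, against 71.2% of all genes. With the ranked lists of the replicates the counts were 5 of 7 in replicate 1, where 67.3% of all genes had one, and 7 of 7 in replicate 2, where 72.8% did. The genes with no ranked region in replicate 1 were npl-4.1 and npl-4.2.

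The gene cdc-48.1 (WBGene00007352, II:10560036-10563407, minus strand) encodes one of the p97 ATPases. Its conservative region spanned II:10563442-10563704, with the summit at 10563573, 166 bp upstream of the annotated start. No start of another protein-coding gene was closer. The next protein-coding gene upstream, C06A1.6, lies 704 bp away on the same strand. The signal of the region was 494.6 in replicate 1 and 570.5 in replicate 2, a mean of 532.6 ± 53.7 (SD, n = 2). The log2 ratio of the replicates, 0.21, lay between those quartiles. In each replicate the region stood at rank 35 of the ranked list and passed the threshold. The summits of the replicates lay 4 and 9 bp from that of the series. Of the 3890 conservative regions, 1291 (33.2%) were found in both replicates. In the conservative list the signal of the cdc-48.1 region was 1046, rank 32 of 3890, with the highest score the file allows, 1000. In the ranked list of the series its IDR was 1e-05, the smallest that file can hold.

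Few genes had a higher region. By the highest ranked signal in their window, 28 genes stood at or above cdc-48.1 in the series list, 27 in replicate 1 and 30 in replicate 2, cdc-48.1 included, which put it at the 99.8th percentile of genes with a region in each list. The 99th percentile lay at 202.6 in replicate 1 and 234.4 in replicate 2. The promoter region thus exceeded that level in both replicates.

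**Figure D1:**
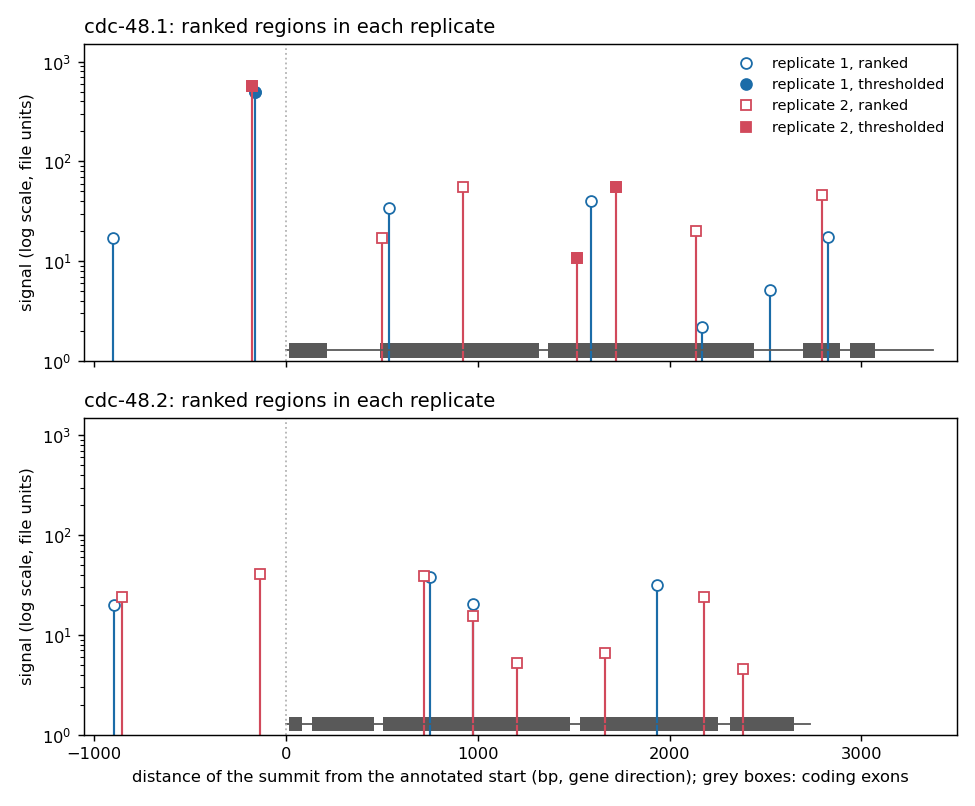
Signal (log scale, file units) of every ranked region with its summit in the counting window of cdc-48.1 or cdc-48.2. It is drawn against the distance of the summit from the annotated start in bp, in the direction of the gene. Circles are replicate 1, squares replicate 2, filled symbols thresholded regions and grey boxes coding exons. The conservative regions with summits just past the ends of the genes are not drawn. The upstream region of cdc-48.1 stands at 494.6 and 570.5, while no symbol at cdc-48.2 exceeds 40.71.

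The small nucleolar RNA genes C06A1.8 and C06A1.9 lie inside cdc-48.1, and nearest starts were taken among protein-coding genes only. The window of cdc-48.1 held 8 ranked regions of the series list in all, upstream ones included. Those in the gene body were weaker than the conservative region. The nearest to the threshold was centred 1719 bp downstream of the start, in a coding exon, at II:10561500-10561875. Its IDR was 0.01002, just outside the conservative list, and a score of 854 placed it in the authors' other thresholded list. In replicate 2 it passed the threshold with a signal of 55.06, whereas in replicate 1 the overlapping region had a signal of 40.35 and did not. A neighbouring region 1520 bp downstream of the start also passed in replicate 2, with a signal of 10.75, so that replicate 2 had 3 thresholded regions at cdc-48.1 and replicate 1 had 1. The upstream region was 12.3 times the next highest region of the gene in replicate 1 and 10.4 times in replicate 2. A further conservative region, II:10559790-10560165, had its summit 58 bp past the end of cdc-48.1 and was not counted for it. Its signal was 99.89, with 47.03 in replicate 1, not thresholded, and 73.79 in replicate 2, thresholded.

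The paralog cdc-48.2 (WBGene00008053, II:8138496-8141230, plus strand) encodes the other p97 ATPase. The proteins are 809 residues for cdc-48.1 and 810 for cdc-48.2, and 89.8% of 802 aligned positions were identical. No thresholded region was counted at cdc-48.2 in any of the 4 thresholded lists. It had 8 ranked regions in the series list, as many as cdc-48.1. The best repeated lay 728 bp downstream of the start in a coding exon, with 38.45 in replicate 1 and 39.42 in replicate 2 and an IDR of 0.0324. The one nearest upstream lay 224 bp before the start; it had no counterpart in replicate 1 and a signal of 40.71 in replicate 2, with an IDR of 0.256. Among genes with a ranked region, the highest signals at cdc-48.2 stood at the 62.5th percentile in replicate 1 and the 59.1st in replicate 2. Those at cdc-48.1 were 12.9 times as high in replicate 1 and 14.0 times in replicate 2.

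One conservative region lay just past the end of cdc-48.2. It spanned II:8141167-8141542 with its summit 125 bp beyond the end of the gene, and the nearest annotated start was that of ints-11. Its signal was 68.64 in replicate 1, thresholded, and 60.63 in replicate 2, not thresholded. By an overlap of at least 1 bp rather than by summit, this region would be counted for cdc-48.2. That makes 2 of 7 genes (28.6%), against 15.4% of all genes under the same rule.

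The cofactor gene ufd-1 (WBGene00006733, IV:12329408-12330890, minus strand) encodes the subunit that binds ubiquitin chains together with NPL-4. It had no thresholded region. Its best region in the ranked list of the series lay 79 bp downstream of the first annotated start, with a signal of 38.7 in replicate 1 and 50.5 in replicate 2 and an IDR of 0.0146. Both replicate summits lay 2 bp from that of the series. The upstream neighbour F19B6.1 lies 85 bp away on the same strand.

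The cofactor genes npl-4.1 (WBGene00019120, II:5631351-5633284, plus strand) and npl-4.2 (WBGene00019121, II:5622889-5624959, plus strand) are near copies whose starts lie 8462 bp apart. Their proteins of 529 residues were identical at 524 positions (99.1%). Of the stretches of 36 bases in their windows, 89.9% for npl-4.1 and 88.2% for npl-4.2 occur elsewhere in the genome, so a short read from most of either gene has more than one possible origin. How such reads were treated is not given in the sources used here, and values at this pair are uncertain. Neither gene had a ranked region in replicate 1. In replicate 2 npl-4.1 had 1 with a signal of 25.32 and npl-4.2 had 1 with a signal of 8.536, at the 20.4th and 1.18th percentiles of genes with a region. Whether the repeats account for these low values was not tested. At the other members the share of repeated stretches was 2.51% for cdc-48.1 and 0 elsewhere.

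**Figure D2:**
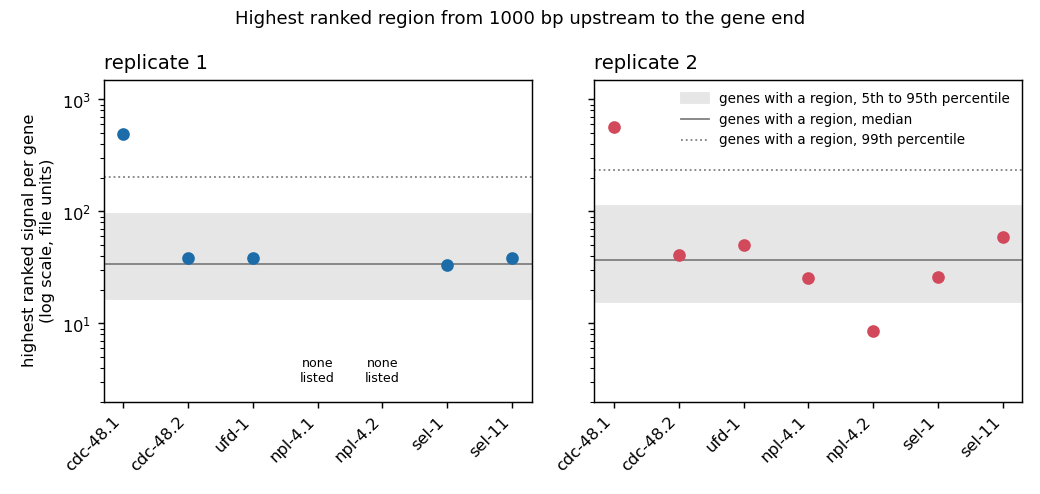
Highest ranked signal (log scale, file units) in the window of each of the 7 genes in replicate 1 and replicate 2, 1 point per gene, with the 5th to 95th percentile of genes with a ranked region in grey, their median as a line and their 99th percentile dotted. In both replicates cdc-48.1 lies above the dotted line, and npl-4.1 and npl-4.2 have no region in replicate 1.

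The ligase gene sel-11 (WBGene00004768, V:11767328-11769899, plus strand) encodes the Hrd1 counterpart that attaches ubiquitin. None of its 7 ranked regions passed a threshold in any list. The best repeated was centred 12 bp upstream of the start, with 38.11 in replicate 1 and 40.86 in replicate 2 and an IDR of 0.0292. The overlapping summits lay 131 bp from it in replicate 1, inside a coding exon, and 2 bp from it in replicate 2. Both replicate regions also overlapped a series region 213 bp downstream of the start, with an IDR of 0.02925. A region 1697 bp downstream of the start had the gene's highest signals in the series and in replicate 2. It had 30.19 in replicate 1, 59.42 in replicate 2 and an IDR of 0.0588. Its nearest annotated start was that of F55A11.4. The gene syx-5 ends 105 bp upstream of sel-11 on the same strand, so the region at the start also lies close to the end of syx-5.

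The partner gene sel-1 (WBGene00004759, V:12560732-12563383, plus strand) encodes the Hrd3 counterpart that passes substrates to the ligase. It had 5 ranked regions and no thresholded one. The region at the start, 31 bp upstream, had a signal of 16.96 in replicate 1 and no counterpart in replicate 2. The highest signal of the series list at sel-1, 44.25 at 817 bp downstream of the start, overlapped no region in either replicate. A region 2291 bp downstream of the start appeared in both replicates, at 33.45 and 15.96, and its nearest annotated start was that of mrps-5. The upstream interval of sel-1 is long, with 7540 bp to the next protein-coding gene.

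Over the 7 genes the ranked list of the series held 34 regions, of which 1 was in the conservative list. The global IDR was under 0.05 at 6 of them, at 4 genes, and over 0.05 at the other 28. The summits of 9 lay upstream of a start and those of 24 in coding exons. Of the 34 regions, 18 overlapped a ranked region in both replicates and 4 in neither. A ranked region in a replicate can overlap more than 1 of them. For an IDR under 0.05, place and overlap, the shares over all ranked regions or all genes are not given here. These counts therefore describe the 34 regions alone. Apart from cdc-48.1, the members' highest signals ran from 33.45 to 38.7 in replicate 1, where 4 of them had a region, and from 8.536 to 59.42 in replicate 2. The medians over all genes with a region were 33.89 and 36.76.

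**Figure D3:**
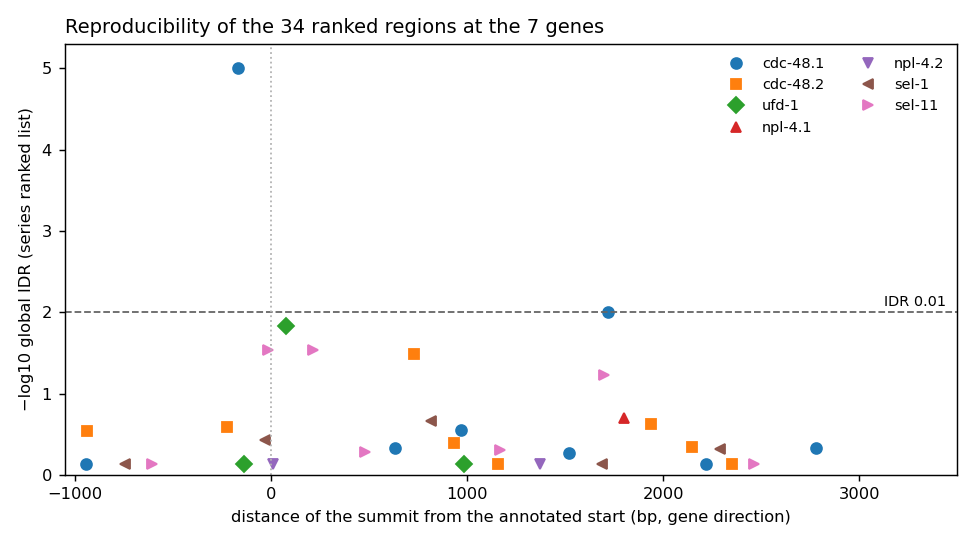
The −log10 of the global IDR of the 34 ranked regions at the 7 genes, with 1 symbol per region and 1 shape per gene, against the distance of the summit from the annotated start in bp, with a dashed line at an IDR of 0.01. The upstream region of cdc-48.1 sits at the cap of the scale, its region at 1719 bp sits at the line with 0.01002, and the next is that of ufd-1 at 0.0146.

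The distances above are from annotated starts. In C. elegans many transcripts lose their original 5′ end to a spliced leader that is joined after an AG, and the annotated start of such a gene is the splice site. An AG stood directly before the annotated start of 5 of the 7 genes (71.4%), all but npl-4.1 and npl-4.2, against 27.6% of all protein-coding genes. For these 5 genes the distance to the annotated start may not be the distance to the start of transcription.

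The motifs were searched on both strands, within 100 bp of each summit and in the 250 bases before each start. No CCAAT lay within 100 bp of the summit upstream of cdc-48.1, nor within 50 or 200 bp or anywhere in the region. It occurred within 100 bp at 36.9% of conservative summits and 37.2% of ranked summits, and in 38.9% of the 250-base promoters. The longer form has A or G at both bases before CCAAT, and C or G and then A or G after it. That form occurred at 8.38% of conservative summits and not at the summit upstream of cdc-48.1. The conservative region just past the end of cdc-48.1, outside the counting window, had 1 CCAAT within 100 bp of its summit. That copy was of the longer form. The ER stress element, searched as CCAAT and CCACG separated by 9 bases, occurred at 0.0258% of conservative summits and at no summit of the 34 regions. CGCGC was present at cdc-48.1 in 2 copies, 27 and 49 bp from the summit, and occurred at 25.3% of conservative summits, 10.6% of ranked summits and 12.7% of the 250-base promoters. TGACGT was present in 1 copy, 17 bp from the summit, and occurred at 8.02%, 7.19% and 8.45% of them. CGCGC and TGACGT were added to the search after the data were seen, the second after the sequence itself was read.

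Among the weaker regions CCAAT was not rare. It lay within 100 bp of 15 of the 34 ranked summits, against 37.2% of all ranked summits. The region 224 bp upstream of cdc-48.2 had 2 copies within 100 bp of its summit. The longer form occurred at 2 of the 34, in npl-4.2 and sel-11, against 2.76% of ranked summits. In the 250 bases before the starts, CCAAT occurred at 1 of the 7 genes, cdc-48.2, against 38.9% of all such windows. The sel-1 window held 1 CGCGC and 1 TGACGT, and its region nearest the start did not pass a threshold. A match or its absence describes these letters alone.

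Among regions with a summit in a gene window, those nearest to that of cdc-48.1 in signal lay at genes of other functions. Above it in that order came a region with 1106.2, in the windows of rpl-20, a ribosomal protein gene, and Y17G9B.5, and 1 with 1051.5 at mog-4, which encodes a DEAH-box helicase. Below it came a region with 1037.1 at cox-5B, a subunit of cytochrome c oxidase, and 1 with 1031.7 in the window of ced-7, which encodes an ABC transporter, whose nearest start was that of C48B4.13. In replicate 1 these 4 lay between 471.8 and 504.8 and in replicate 2 between 541.1 and 604.7, so that the values of cdc-48.1 fell inside both ranges and its order among them is not resolved. CCAAT was found at the last of the 4 only, and CGCGC at mog-4 and cox-5B.

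Further genes of p97 and ER-associated degradation were listed by name, and 25 of 28 were matched in the annotation. The list was chosen with earlier results of these data known, so its shares are descriptions and not independent evidence. A conservative region was counted at 12 of the 25 (48.0%), against 13.7% of all genes. Their windows had a median length of 3572 bp, against 3024 bp for all genes. Only part of these regions lay at the promoters. A summit from 500 bp upstream to 200 bp downstream of a start was found for 7 of the 25 (28.0%), against 7.4% of all genes, and for 10 (40.0%) the nearest start was the gene's own, against 10.8%. Both replicates had a thresholded region at 4 of the 25 (16.0%), against 5.59% of all genes.

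The highest of these was at ubql-1, which encodes ubiquilin, a shuttle of ubiquitin-marked proteins to the proteasome. Its signal was 2178.1 in replicate 1 and 2815.8 in replicate 2, above cdc-48.1 in both. The summit lay 526 bp upstream of the start, outside the window from 500 bp upstream to 200 bp downstream. Within 100 bp of it were 3 copies of CCAAT, 1 of them in the longer form. The next was ubc-6, an ubiquitin-conjugating enzyme of the ER membrane, with 223.0 and 199.3 at 268 bp from the start, below cdc-48.1 in both. The p97 adaptor gene ubxn-2 had 105.8 and 108.1 at 204 bp, and uggt-1, which encodes the glucosyltransferase that senses glycoprotein folding, had 75.30 and 61.04 at 176 bp. These 4 genes passed the threshold in both replicates. Of the 12 genes with a conservative region, 3 had CCAAT near a conservative summit and 1 had the longer form. These counts are per gene, over all its conservative summits, and ubc-6 and ubql-1 had CCAAT at more than 1 summit. The share over all genes is not given here. The shares of 36.9% and 8.38% are per summit and cannot be set beside these counts.

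The other 8 were weaker or less well repeated. At rnf-121, ubxn-3 and uggt-2 the strongest region was thresholded in replicate 2 only, with 119.3 at rnf-121 and 91.81 at ubxn-3, and at ubc-7 in replicate 1 only, with 78.66. A second conservative region at ubc-7, whose nearest start was that of rpac-19, overlapped a region with 140.6 in replicate 2, thresholded, and 1 with 40.95 in replicate 1, not thresholded. At cup-2, a derlin of the ER membrane, ufd-3, a p97 cofactor, rad-23, a ubiquitin shuttle, and marc-6, an ER ubiquitin ligase, it was thresholded in neither. For rnf-121 and cup-2 the nearest start belonged to another gene, C16C10.4 and tag-353. The 13 without a conservative region were der-2, rnf-5, hrdl-1, ubc-15, png-1, ufd-2, chn-1, cdc-48.3, ubxn-1, ubxn-4, ubxn-5, ubxn-6 and atx-3.

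**Figure D4:**
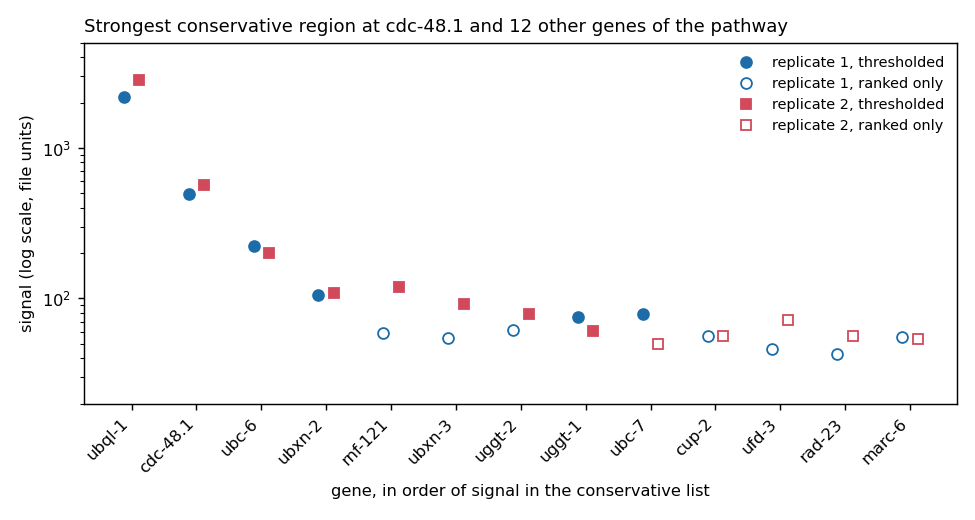
Signal (log scale, file units) in replicate 1 (circles) and replicate 2 (squares) of the strongest conservative region of cdc-48.1 and of the 12 other pathway genes that have one, with filled symbols where the replicate passed the threshold. Only ubql-1 lies above cdc-48.1, and 5 of the 13 genes have both symbols filled.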

How the data were processed

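Per the labels and the accompanying description files, the authors called regions in 2 replicates on ce11 and compared them by IDR. Aligner, peak caller and software versions: not given in the sources used here. Each deposited signal is the caller's value for 1 region. The deposited score scales the global IDR, and no region of the conservative list had a score under 830. The deposited −log10 column of the ranked lists holds the global IDR itself. Sequencing depth is unknown, so no counting interval is given. Most conservative regions, 89.3%, have 1 fixed width of 376 bp, so widths were not read as extents of binding.

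Regions were placed by summit on the Ensembl release 115 annotation of WBcel235, the same assembly as ce11, with coordinates counted from 1. Nearest starts and upstream neighbours were taken among protein-coding genes only. Python 3.11.15, pandas 2.3.3, numpy 2.4.6 and Biopython 1.88 were used, and figures were drawn with matplotlib 3.10.9. Counts and motif searches were tested on simulated data. The 7 genes, the list of 28 others and the motifs were chosen with earlier results of these data known, so none is independent evidence. All 7 genes are named, as are the other pathway genes and the 4 regions nearest in signal to that of cdc-48.1. With 1 group and 2 replicates, no test between conditions was made and no p-value is given. Alternatives were the other lists, each replicate alone, other windows, overlap in place of summit and other motif widths.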

Additional observations from a re-analysis of the deposited data

How the results depend on the processing

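At the 7 genes, 7 of 9 alternatives left 1 gene with a thresholded region. Without the upstream 1000 bp the count was 0, since the region of cdc-48.1 lies before its start. With any overlap of 1 bp it was 2, cdc-48.1 and cdc-48.2. Under the same rules the shares of all genes were 7.24% and 15.4%. The region of cdc-48.1 was found in both replicates under each of the 3 alternatives that used both. These were an overlap of at least 50%, summits within 100 bp and the ranked lists. The conservative list was made from both replicates, and the ranked lists hold the same replicate regions as the thresholded ones. The outcome is therefore not independent support. The share of all conservative regions found in both, 33.2%, is not given for these alternatives. Counts of the 1 conservative member region with a motif were 0 for CCAAT at each width, 1 for CGCGC and 1 for TGACGT, the last 2 chosen after the data were seen. For the other pathway genes the count of 12 became 9 with the other thresholded list of the series. It became 7 with the window from 500 bp upstream to 200 bp downstream of a start and 4 within the gene alone. With a single replicate it was 5 to 7. For all genes the count of 2736 became 2798, 1478, 1446 and 1344 to 1785 under the same choices. The signal at cdc-48.1 with a single replicate was 494.6 to 570.5. No paired analysis was possible because there was a single group. Unknown depth and 2 replicates limit the precision, and a region not listed is not shown to be unbound.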
